A study of Mus musculus with 6 samples.

Results

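The genes described here encode 40 components of the mouse DNA replication machinery. They were named by symbol from the known steps of replication, and each symbol matched exactly 1 of the 55487 gene identifiers in the count files. No rule on measured values picked them, but earlier results of these data were known when they were chosen. All 40 passed the filter on low counts, which left 14427 genes for testing. RNA-seq was done on polyA RNA from CD45+ cells, the pool of white blood cells that carry the surface protein CD45, sorted fresh from mesenteric lymph node (mLN) and from spleen. Both groups came from wild-type C57BL6/J mice and none of the cells was treated, with 3 mLN libraries and 3 spleen libraries. The labels do not give age, and they do not say whether the 3 libraries of a tissue came from separate animals or from pooled cells, so p-values measure the spread between these libraries, which may be technical.

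DNA replication starts at origins that are licensed in G1, when the origin recognition complex, Cdc6 and Cdt1 load the Mcm2 to Mcm7 ring onto DNA as an inactive helicase. In S phase Cdc45 and the GINS complex join the ring and switch it on, and DNA polymerases, a sliding clamp and its loader, a ligase and a steady supply of deoxynucleotides then copy and seal the strands. Chromatin assembly factors and the maintenance methylase rebuild the copied chromatin, and many of the genes are switched on by E2F transcription factors as cells enter S phase. In lymphoid organs most lymphocytes are at rest, and dividing cells include activated lymphocytes and, in the spleen of the mouse, blood cell precursors.

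The libraries held 12584244 to 18119551 expected counts. Levels are given below as CPM, which are counts scaled to library size after TMM normalisation, or as TPM, a share of all transcripts that also divides by gene length, where genes are compared with each other. The least covered of the 40 genes in any library was Orc1, with 28 counts, and 37 of the 40 had at least 100 counts in every library. Ptprc, which encodes CD45, averaged 2675 ± 35.0 CPM in mLN libraries and 2191 ± 39.0 CPM in spleen libraries (SD, n = 3 each). In bulk RNA, fewer cells that express a gene and less of its RNA per cell cannot be told apart.

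Replication genes were lower in mLN. Of the 40 genes, 33 fell, 1 rose and 6 were not called at an adjusted p under 0.05 by edgeR's quasi-likelihood test. That is 82.5% lower, against 23.8% of all tested genes lower in mLN, 21.8% higher and 45.5% called in either direction. The median log2 fold change, mLN over spleen, was -0.44 over the 40 genes and -0.0018 over all tested genes. In 33 of the 40 genes every mLN library lay below every spleen library in CPM, as did 27.5% of all tested genes, and in 1 gene every mLN library lay above, as did 25.5% of all. At least a 2-fold fall was called in 7 genes (Orc1, Cdc6, Cdc45, Gins1, Mcm10, Rrm1 and Rrm2), or 17.5% of the 40, against 8.60% of all tested genes. Summed over the 40 genes, the level was 1487, 1448 and 1465 TPM in the mLN libraries, against 2026, 1972 and 2020 TPM in the spleen libraries. The spread between libraries was small, with a common coefficient of variation of 0.055. With an assumed coefficient of variation of 0.2, 15 of the 40 genes were called lower and 0 higher, and with 0.4, 3 were called lower (Orc1, Cdc6 and Rrm2) and 0 higher. Of all 14427 tested genes, 2868 were called in either direction with 0.2 and 923 with 0.4.

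**Figure D1:**
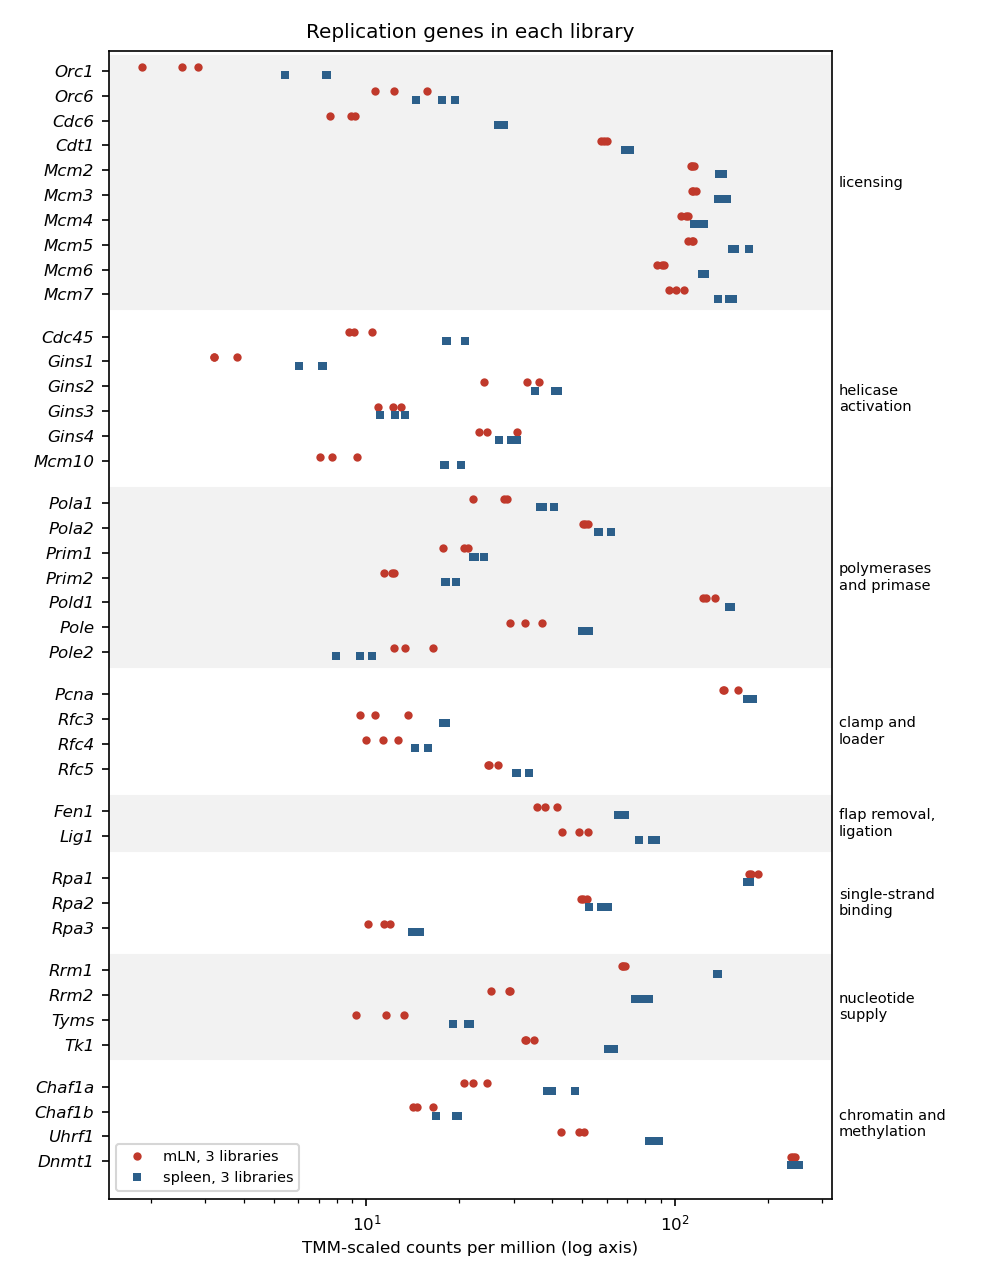
The level of each of the 40 replication genes in every library, in TMM-scaled CPM on a log axis, grouped by step of replication, with red circles for the 3 mLN libraries and blue squares for the 3 spleen libraries. Circles lie left of squares for 33 genes, Pole2 has its circles to the right, and the symbols of Orc6, Gins2, Gins3, Gins4, Rpa1 and Dnmt1 overlap between tissues.

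**Figure D2:**
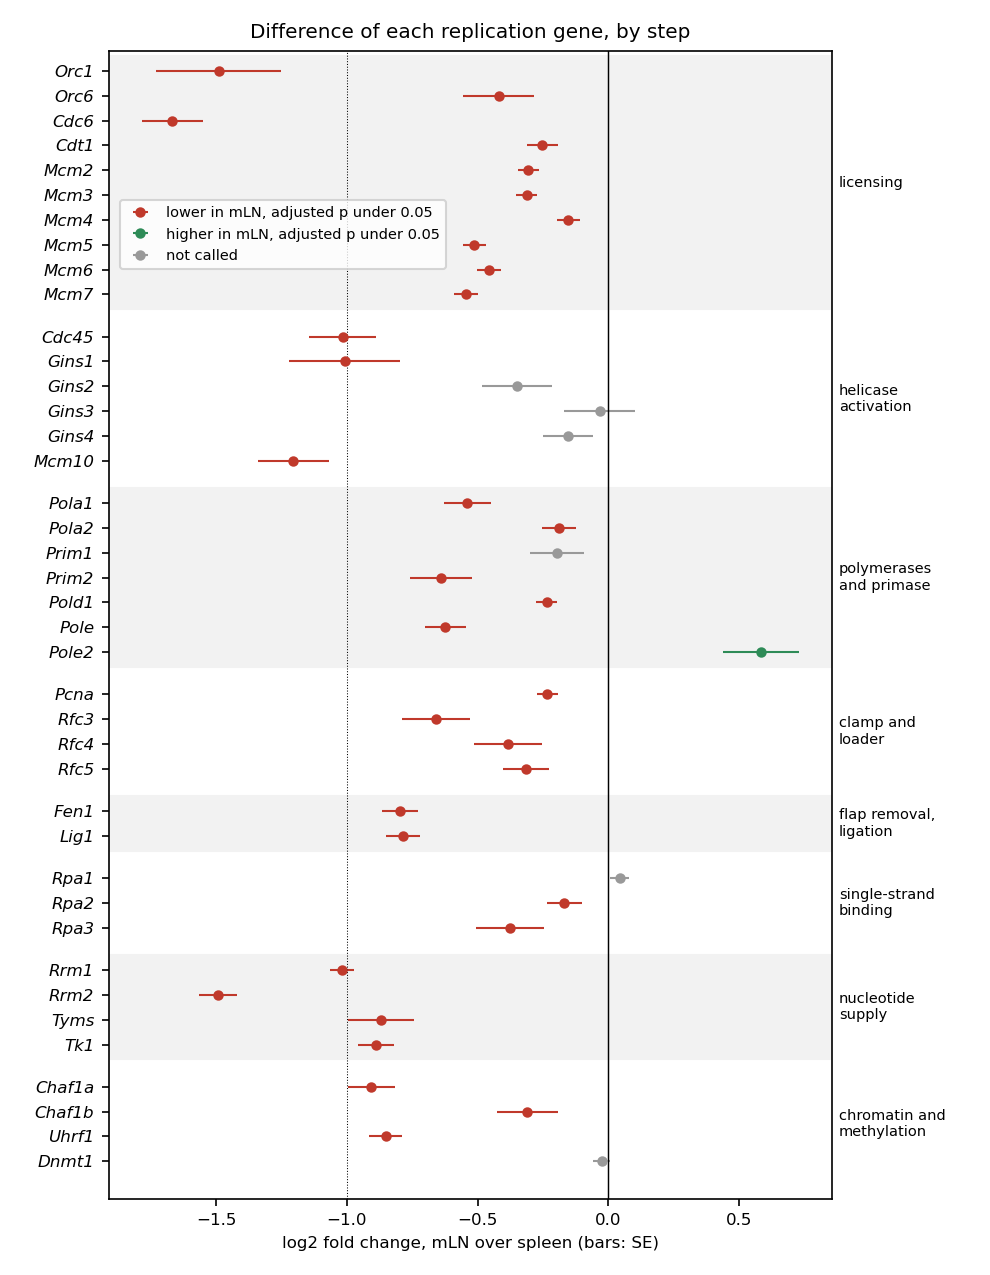
The fitted log2 fold change, mLN over spleen, of each replication gene with its standard error as a bar, grouped by step, with calls by edgeR's quasi-likelihood test in colour and the dotted line marking a 2-fold fall. Points lie furthest left for Cdc6 (-1.67), Rrm2 (-1.49) and Orc1 (-1.49), and Pole2 (0.58) is the green point on the right.

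The promoters are shown because so many of these genes moved in the same direction. RefSeq promoters on GRCm38.p6, from 250 bases before to 50 bases after an annotated start, were matched by symbol for 34 of the 40 genes. They were searched on both strands for the E2F-type letters TTTCCCGC, TTTCGCGC, TTTGCCGC and TTTGGCGC. A match was found for 15 of the 34 genes (44.1%), against 704 of 27025 gene symbols in the table (2.60%) and 478 of the 10188 tested genes with a promoter (4.69%). By call, 12 of the 29 genes lower in mLN, the 1 gene higher and 2 of the 4 genes not called held a match. A match describes letters in this window and does not show a site bound in these cells. No match was found in the promoters of the nucleotide supply and single-strand binding genes. The lines below give 100 bases that hold the first match of 6 genes. Among genes with a match, these had the lowest log2 fold changes of their steps. They are 2 licensing genes and 1 gene of each of 4 other steps. Genes searched without a match that fell further, such as Chaf1a and Fen1, are therefore not shown. Gins3, the only helicase activation gene searched that held a match, is not shown either. Its log2 fold change was nearer to 0 than those of these 6 genes. Mcm4, Gins1, Gins2, Gins4, Pole and Prim2 had no promoter to search. Pole2 was added after its value was seen. Each is written 5′ to 3′ on the strand of its gene, with the matches in capitals. The stretches of Uhrf1 and Lig1 belong to alternative RefSeq starts of these genes. The stretch of Cdc6 lies before the RefSeq start used here but inside the gene span given below, which begins at base 98907801.
Cdc6, chr11:98907967-98908066, plus strand: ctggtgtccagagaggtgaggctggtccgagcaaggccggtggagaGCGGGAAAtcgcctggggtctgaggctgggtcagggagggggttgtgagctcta
Orc1, chr4:108579381-108579480, plus strand: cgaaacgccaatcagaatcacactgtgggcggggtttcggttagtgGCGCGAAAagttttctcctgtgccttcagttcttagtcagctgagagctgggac
Uhrf1, chr17:56304082-56304181, plus strand: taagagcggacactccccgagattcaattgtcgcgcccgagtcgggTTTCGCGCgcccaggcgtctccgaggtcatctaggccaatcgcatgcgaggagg
Lig1, chr7:13278776-13278875, plus strand: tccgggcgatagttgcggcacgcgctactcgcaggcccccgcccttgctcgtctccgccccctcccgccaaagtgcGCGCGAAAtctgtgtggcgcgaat
Rfc3, chr5:151651165-151651264, minus strand: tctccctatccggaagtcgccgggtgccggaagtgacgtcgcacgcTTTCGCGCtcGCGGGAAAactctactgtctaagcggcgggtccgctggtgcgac
Pola1, chrX:93632240-93632339, minus strand: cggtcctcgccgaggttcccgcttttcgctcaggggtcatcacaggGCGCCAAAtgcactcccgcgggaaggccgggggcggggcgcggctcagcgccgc
Pole2, chr12:69228141-69228240, minus strand: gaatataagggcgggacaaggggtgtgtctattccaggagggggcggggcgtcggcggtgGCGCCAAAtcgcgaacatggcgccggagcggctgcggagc
Rfc3 held 2 matches side by side, and the other stretches held 1 each. The first match began 138 bases before the start in both Cdc6 and Pola1, 185 before it in Uhrf1, 27 before it in Orc1, 10 before it in Rfc3, 27 after it in Lig1 and 11 after it in Pole2. The only gene that rose, Pole2, carried the same 8 letters as Pola1, which fell.

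All 10 licensing genes of the 40 fell (median log2 fold change -0.44), with log2 fold changes of Cdc6 and Orc1 far below those of the ring they load. Orc2 to Orc5 are not among the 40 and are given further below. Cdc6, the ATPase that recruits the ring to the origin (chromosome 11, 98907801 to 98923940, GRCm38), had 7.61, 8.89 and 9.15 CPM in mLN, against 26.8, 27.8 and 26.9 CPM in spleen. The groups stood far apart, and the log2 fold change was -1.67 (SE 0.116, adjusted p = 6.44e-16), so that mLN held 0.314 of the spleen level. Orc1, the large ATPase subunit of the origin recognition complex (chromosome 4, 108579423 to 108614833), had 1.87, 2.53 and 2.83 CPM in mLN, against 7.42, 7.43 and 5.44 CPM in spleen. It was the least expressed of the 40 genes per length in both tissues, at 1.5 ± 0.567 TPM in mLN and 3.65 ± 0.499 TPM in spleen (SD, n = 3 each). Its log2 fold change was -1.49 (SE 0.239, adjusted p = 1.31e-06) with no overlap between tissues. Orc6, the small subunit of the same complex, had 10.7, 12.3 and 15.7 CPM in mLN, against 14.5, 17.5 and 19.4 CPM in spleen. Here the highest mLN library lay above the lowest spleen library, and the log2 fold change was -0.42 (adjusted p = 0.00978). That call was lost without mLN replicate 1 (adjusted p = 0.0804), spleen replicate 2 (0.0515) or spleen replicate 3 (0.105), and with an effective-length offset (0.258). Cdt1, the partner of Cdc6 in loading, had 60.3, 58.7 and 57.5 CPM in mLN, against 71.4, 70.1 and 68.7 CPM in spleen (log2 fold change -0.25, adjusted p = 0.000441). Its libraries differed little within a tissue, so this small difference left no overlap.

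The 6 subunits of the helicase ring, Mcm2 to Mcm7, all fell, by modest and unequal amounts (median log2 fold change -0.39), and no mLN library overlapped a spleen library in any of them. Mcm7 had 101, 95.4 and 107 CPM in mLN, against 138, 154 and 149 CPM in spleen, with the largest fall of the 6 (log2 fold change -0.54, SE 0.0460, adjusted p = 4.03e-13). Mcm4 had 104, 109 and 110 CPM in mLN, against 116, 120 and 124 CPM in spleen, with the smallest fall (log2 fold change -0.15, SE 0.0440, adjusted p = 0.00354). The other subunits lay between these, with log2 fold changes of -0.51 for Mcm5, -0.46 for Mcm6, -0.31 for Mcm3 and -0.31 for Mcm2. Although the subunits assemble in equal numbers, their transcripts were not equally abundant per length. In mLN they ran from 46.0 ± 1.00 TPM for Mcm4 to 85.4 ± 7.18 TPM for Mcm7, and in spleen from 53.0 ± 1.58 TPM for Mcm4 to 131 ± 7.65 TPM for Mcm7 (SD, n = 3 each). In both tissues Mcm7 was highest, Mcm5 next and Mcm4 lowest. Mcm2 and Mcm6 did not differ beyond their spread, at 53.0 ± 1.17 and 54.2 ± 3.5 TPM in mLN and 68.6 ± 2.10 and 70.5 ± 1.95 TPM in spleen.

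Helicase activation split in its outcome: Cdc45, Gins1 and Mcm10 were about 2-fold lower in mLN, while Gins2, Gins3 and Gins4 were not called. Mcm10, which helps the ring part and begin unwinding (chromosome 2, 4989714 to 5012791), had 7.74, 9.34 and 7.05 CPM in mLN, against 17.9, 17.9 and 20.3 CPM in spleen (log2 fold change -1.21, SE 0.134, adjusted p = 4.71e-10). Cdc45, a core part of the active helicase, had 10.4, 9.11 and 8.75 CPM in mLN, against 18.1, 20.9 and 18.3 CPM in spleen (log2 fold change -1.02, adjusted p = 7.90e-09). In both genes the tissues were well separated. Gins1 had 3.20, 3.21 and 3.81 CPM in mLN, against 7.19, 7.25 and 6.04 CPM in spleen (log2 fold change -1.01, SE 0.214, adjusted p = 0.000123). Its partners in the same 4-part complex were not called. Gins3 had 10.9, 12.2 and 13.0 CPM in mLN, against 12.4, 11.0 and 13.3 CPM in spleen, fully interleaved (log2 fold change -0.03, SE 0.136, adjusted p = 0.874). Gins4 had 30.7, 23.1 and 24.6 CPM in mLN, against 30.8, 29.5 and 27.0 CPM in spleen (log2 fold change -0.16, adjusted p = 0.198). Without mLN replicate 1, its highest mLN library, Gins4 was called lower (log2 fold change -0.29, adjusted p = 0.0197). It was not called in 15 of 16 alternatives, and its log2 fold change ran from -0.286 to -0.065 over all 16.

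Gins2 could not be settled by these counts. It had 36.2, 24.0 and 33.1 CPM in mLN, against 40.9, 35.2 and 41.8 CPM in spleen, with 1 mLN library above the lowest spleen library (log2 fold change -0.35, SE 0.135, adjusted p = 0.0578). It was called lower without mLN replicate 1 (adjusted p = 0.000862) or spleen replicate 2 (0.0198), and with DESeq2, library totals alone, no filter or a stricter one (0.000127 to 0.0352). The effective length that the authors' counting gave it was 3465 to 3670 bases in mLN libraries and 2344 to 2730 bases in spleen libraries, so its per-length level differed more, at 12.6 ± 2.82 TPM in mLN and 22.9 ± 2.85 TPM in spleen (SD, n = 3 each). With an effective-length offset the log2 fold change was -0.82 (adjusted p = 0.00323). Of 16 alternatives, 8 called Gins2 lower and 8 did not, with log2 fold changes from -0.817 to -0.179. Of its 4097 exonic bases, 2758 overlap exons of Gse1 on the opposite strand, which had 111 ± 4.09 CPM in mLN and 120 ± 9.25 CPM in spleen. The part of this neighbour in the Gins2 counts was not tested.

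Among the polymerase and primase genes 5 fell, 1 rose and 1 was not called (median log2 fold change -0.24). Polymerase alpha and primase start each new strand. Its catalytic gene Pola1 had 22.2, 28.5 and 27.9 CPM in mLN, against 36.5, 37.3 and 40.4 CPM in spleen (log2 fold change -0.54, adjusted p = 2.07e-06), without overlap. Pola2, its accessory subunit gene, differed less, with 50.3, 52.1 and 50.9 CPM in mLN, against 56.8, 61.8 and 56.3 CPM in spleen (log2 fold change -0.19, adjusted p = 0.0158). That call was lost without spleen replicate 2 (adjusted p = 0.112) and with the effective-length offset (log2 fold change -0.03, adjusted p = 0.789). Of the primase pair, Prim2, the large subunit, had 12.3, 11.4 and 12.1 CPM in mLN, against 19.5, 18.1 and 17.9 CPM in spleen (log2 fold change -0.64, adjusted p = 1.92e-05). Prim1, the catalytic subunit, had 20.7, 21.3 and 17.7 CPM in mLN, against 24.0, 22.5 and 22.1 CPM in spleen. Its groups did not overlap, yet the log2 fold change of -0.20 missed the threshold (SE 0.102, adjusted p = 0.119) and was called when library totals alone set the scale (-0.25, adjusted p = 0.0475). That was the only 1 of 16 alternatives to call Prim1, and its log2 fold change ran from -0.248 to -0.055 over them. Pold1, the catalytic subunit of the lagging-strand polymerase delta, had 126, 134 and 123 CPM in mLN, against 151, 150 and 152 CPM in spleen (log2 fold change -0.24, adjusted p = 4.02e-06).

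Polymerase epsilon, the leading-strand enzyme, had subunits that moved in opposite directions. Pole, its catalytic subunit (chromosome 5, 110286306 to 110337474), had 37.0, 32.6 and 29.2 CPM in mLN, against 52.5, 49.9 and 50.1 CPM in spleen, a log2 fold change of -0.62 (SE 0.0779, adjusted p = 6.89e-09). Pole2, the second subunit (chromosome 12, 69201773 to 69228195), was the only one of the 40 genes to rise. It had 13.3, 12.3 and 16.4 CPM in mLN, against 7.99, 10.4 and 9.50 CPM in spleen, a log2 fold change of 0.58 (SE 0.146, adjusted p = 0.000944). Neither gene had overlapping groups. Per length the order of the pair turned over, since Pole2 averaged 15.8 ± 1.71 TPM and Pole 8.11 ± 1.41 TPM in mLN, while in spleen Pole2 averaged 10.4 ± 0.786 TPM and Pole 12.9 ± 0.462 TPM (SD, n = 3 each). Pole2 shares 245 of its 2881 exonic bases with Gm49384 on the same strand. Gm49384 also rose, with 3.10 ± 0.636 CPM in mLN and 1.44 ± 0.288 CPM in spleen (log2 fold change 1.10, adjusted p = 0.00783), and its part in the Pole2 counts was not tested.

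All 4 clamp and clamp loader genes fell without overlap between tissues (median log2 fold change -0.35). Pcna, the sliding clamp, was the most abundant of the 40 genes per length in both tissues, at 173 ± 11.0 TPM in mLN and 209 ± 5.01 TPM in spleen (SD, n = 3 each). It had 144, 144 and 160 CPM in mLN, against 174, 172 and 180 CPM in spleen (log2 fold change -0.23, SE 0.0400, adjusted p = 4.55e-06). The annotation holds pseudogene copies of Pcna that could take or lend some of its reads. Of the loader subunits, Rfc3 had 13.7, 10.6 and 9.56 CPM in mLN, against 18.1, 17.9 and 17.7 CPM in spleen (log2 fold change -0.66, adjusted p = 4.00e-05). Rfc4 had 11.3, 12.7 and 9.96 CPM in mLN, against 14.4, 14.3 and 15.8 CPM in spleen (log2 fold change -0.38, adjusted p = 0.0147). Rfc5 had 25.02, 24.7 and 26.7 CPM in mLN, against 33.7, 30.8 and 30.4 CPM in spleen (log2 fold change -0.32, adjusted p = 0.00247). The call of Rfc4 was lost without mLN replicate 3 (adjusted p = 0.0751) or spleen replicate 3 (0.0728), and that of Rfc5 with the effective-length offset (0.128).

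Both genes that finish lagging-strand fragments fell, with lower log2 fold changes than Pcna, a difference that was not tested. Fen1, the nuclease that trims flaps, had 35.7, 41.6 and 37.8 CPM in mLN, against 68.8, 65.4 and 66.2 CPM in spleen (log2 fold change -0.80, SE 0.0690, adjusted p = 4.65e-13). Lig1, the ligase that seals the nicks, had 49.0, 43.0 and 52.3 CPM in mLN, against 86.9, 76.5 and 84.3 CPM in spleen (log2 fold change -0.79, SE 0.0666, adjusted p = 3.61e-13). Both were clear of overlap. In Fen1, 2039 of 2422 exonic bases lie opposite exons of Gm10143 and Tmem258. Tmem258 was higher in mLN, at 33.3 ± 1.83 CPM, against 28.4 ± 4.01 CPM in spleen (adjusted p = 0.0399). Gm10143 had 1.00 ± 0.559 CPM in mLN and 1.90 ± 1.05 CPM in spleen and was not called.

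Replication protein A, which coats single-stranded DNA in repair and recombination as well as at forks, had the smallest median difference of the steps (log2 fold change -0.17). Rpa1, its largest subunit, had 186, 176 and 173 CPM in mLN, against 175, 174 and 171 CPM in spleen, interleaved and not called (log2 fold change 0.04, SE 0.0366, adjusted p = 0.368). Its sign turned with library totals alone (-0.01) and with the effective-length offset (-0.03). Rpa2 had 51.9, 50.4 and 49.6 CPM in mLN, against 60.9, 52.5 and 57.4 CPM in spleen (log2 fold change -0.17, adjusted p = 0.0374). The groups were apart by less than 1 CPM at their nearest, and the call was lost without mLN replicate 2 (adjusted p = 0.0822), mLN replicate 3 (0.0921), spleen replicate 1 (0.22) or spleen replicate 3 (0.0865), with DESeq2 (0.0652) and with the effective-length offset (0.403). Rpa3, the smallest subunit, had 11.4, 10.1 and 11.9 CPM in mLN, against 14.1, 14.2 and 14.9 CPM in spleen (log2 fold change -0.38, adjusted p = 0.0164), and was not called without mLN replicate 2 (0.0869) or spleen replicate 3 (0.0599).

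Nucleotide supply was the step with the lowest median (log2 fold change -0.95), and all 4 of its genes fell without overlap. Ribonucleotide reductase makes deoxynucleotides from a large subunit, Rrm1, and a small one, Rrm2, whose protein accumulates in S phase. Rrm2 (chromosome 12, 24708241 to 24714146) had 29.2, 25.4 and 28.9 CPM in mLN, against 74.4, 77.4 and 82.4 CPM in spleen (log2 fold change -1.49, SE 0.0717, adjusted p = 3.37e-21). Rrm1 (chromosome 7, 102441695 to 102469771) had 67.5, 67.7 and 68.7 CPM in mLN, against 138, 138 and 137 CPM in spleen (log2 fold change -1.02, SE 0.0458, adjusted p = 3.5e-22). Libraries of a tissue agreed closely in CPM for Rrm1, which had the smallest adjusted p of the 40 genes. Per length its mLN libraries agreed less, at 41.9, 32.4 and 28.0 TPM, against 66.9, 66.7 and 74.4 TPM in spleen. Tyms, thymidylate synthase, had 9.27, 11.6 and 13.2 CPM in mLN, against 21.7, 19.0 and 21.3 CPM in spleen (log2 fold change -0.87, adjusted p = 1.66e-07). A pseudogene copy of Tyms is annotated, so its counts carry that uncertainty. Tk1, the thymidine kinase that salvages thymidine in dividing cells, had 34.8, 32.8 and 32.6 CPM in mLN, against 60.8, 61.4 and 63.4 CPM in spleen (log2 fold change -0.89, adjusted p = 2.34e-14).

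Chromatin assembly genes and Uhrf1 fell (3 of 4 genes in this step, median log2 fold change -0.58), while the maintenance methylase gene was not called. Chaf1a, the large subunit of the histone chaperone CAF-1, had 20.8, 22.1 and 24.5 CPM in mLN, against 47.6, 39.8 and 38.5 CPM in spleen (log2 fold change -0.91, SE 0.0897, adjusted p = 1.98e-11). Of its 8854 exonic bases, 4648 lie opposite exons of Ubxn6, which had 54.8 ± 2.75 CPM in mLN and 56.4 ± 4.52 CPM in spleen and was not called. Chaf1b, the CAF-1 subunit that binds Chaf1a, had 16.5, 14.6 and 14.2 CPM in mLN, against 16.8, 19.7 and 19.6 CPM in spleen (log2 fold change -0.31, adjusted p = 0.0261). The nearest libraries almost touched, and the call was lost without mLN replicate 2 (adjusted p = 0.0817), mLN replicate 3 (0.0816), spleen replicate 2 (0.11) or spleen replicate 3 (0.0954), and with the effective-length offset (0.0952). Uhrf1, which reads hemimethylated DNA and brings the methylase to it (chromosome 17, 56303321 to 56323486), had 48.9, 42.9 and 50.8 CPM in mLN, against 88.8, 82.3 and 85.1 CPM in spleen (log2 fold change -0.85, SE 0.0634, adjusted p = 5.21e-15). Dnmt1, the methylase itself (chromosome 9, 20907209 to 20959888), had 246, 238 and 241 CPM in mLN, against 247, 252 and 238 CPM in spleen. Those libraries interleaved, and the log2 fold change was -0.03 (SE 0.0330, adjusted p = 0.577).

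For 6 pairs of genes from a complex or step, chosen because their log2 fold changes differed, the ratio within each library is given as a description. An exact permutation test gave p = 0.1 for each pair. With 3 libraries in each tissue that test cannot give a lower value, so it decides nothing here. The log2 ratio of Cdc6 to Cdt1 was -2.79 ± 0.176 in mLN and -1.37 ± 0.0424 in spleen (SD, n = 3 each), a difference of -1.42. The ratio of Pole2 to Pole was -1.24 ± 0.355 in mLN and -2.46 ± 0.235 in spleen, a difference of 1.22. For Orc1 to Orc6 the difference was -1.08, for Gins1 to Gins3 -0.97, for Rrm2 to Rrm1 -0.47 and for Mcm7 to Mcm4 -0.39. The mLN and spleen libraries did not overlap in any of the 6 pairs, which the choice of pairs favours. Such a ratio is unaffected by the scaling between libraries.

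**Figure D3:**
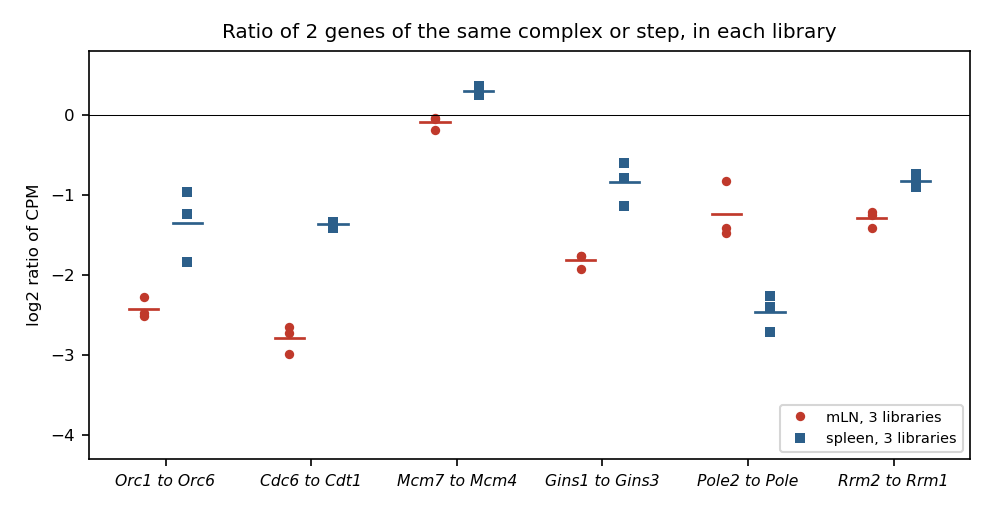
The log2 ratio of CPM between 2 genes of the same complex or step in each library, with red circles for the 3 mLN libraries, blue squares for the 3 spleen libraries and a short line at each mean. The circles lie below the squares in 5 pairs and above them for Pole2 to Pole, where the means are -1.24 in mLN and -2.46 in spleen.

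The rest of the replication pathway, in 4 further lists of 64 genes in all, fell in 36 genes, rose in 6 and was not called in 22 (median log2 fold change -0.24), beside the 23.8% lower and 21.8% higher over all tested genes. Other polymerase, clamp and fork genes came closest to the 40, with 17 of 22 lower, 2 higher and a median of -0.46. The largest falls were in Clspn, a fork checkpoint mediator (14.6 ± 1.96 CPM in mLN and 32.9 ± 2.83 CPM in spleen, log2 fold change -1.17), and Dna2, a flap nuclease (-1.15). The rises were in Pole4, a small subunit of polymerase epsilon (67.4 ± 4.02 CPM in mLN and 52.5 ± 2.03 CPM in spleen, log2 fold change 0.36), and Top2b (0.16). Pole3, another small subunit of polymerase epsilon, was lower (18.9 ± 1.73 CPM in mLN and 26.1 ± 1.81 CPM in spleen, log2 fold change -0.457). Top2a, the topoisomerase of dividing cells, had a log2 fold change of -0.78. Other chromatin replication genes fell in 8 of 13 with none higher (median -0.32), led by Asf1b (-0.62) and Ezh2 (-0.52). Other nucleotide supply genes were mixed, with 6 lower and 3 higher of 14 (median -0.06), Dut at -0.56, Nme2 at 0.35 and Nme1 at 0.25. Other licensing and firing genes were mostly not called, with 5 lower and 1 higher of 15 (median -0.06). Of the other origin recognition complex genes, Orc2 was lower (-0.196). Orc3 (0.094), Orc4 (0.118) and Orc5 (0.075) were not called. Recql4 and Ticrr, which act in origin firing, had log2 fold changes of -0.997 and -0.92, and Mcmbp, which binds the Mcm proteins, had 0.17. The calls of Top2b, Nme1 and Mcmbp were lost with the effective-length offset (adjusted p = 0.0577, 0.868 and 0.287).

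Of 28 regulators of the G1 to S step, 17 were lower (60.7%, against 23.8% of all tested genes) and 3 higher (10.7%, against 21.8% of all), with a median log2 fold change of -0.28. E2f8, an E2F factor that represses S-phase genes, had 7.74, 9.06 and 8.10 CPM in mLN, against 35.6, 35.2 and 37.5 CPM in spleen, a log2 fold change of -2.12. Mybl2 followed at -1.72. Ccnd2, a D-type cyclin of lymphocytes, was on the other side, with 605, 626 and 612 CPM in mLN, against 275, 271 and 273 CPM in spleen (log2 fold change 1.17), and Myc had 0.35. Mitosis genes had the lowest median of these lists (-1.14), with 24 of 25 lower, against 23.8% of all tested genes, and 20 of them at least 2-fold lower, against 8.60% of all. Ttk was at -1.64 and Ccnb1 at -1.55. Mki67, a marker of cycling cells, had 171, 172 and 177 CPM in mLN, against 432, 430 and 433 CPM in spleen (log2 fold change -1.32). The difference between the mitosis and replication medians was not tested.

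**Figure D4:**
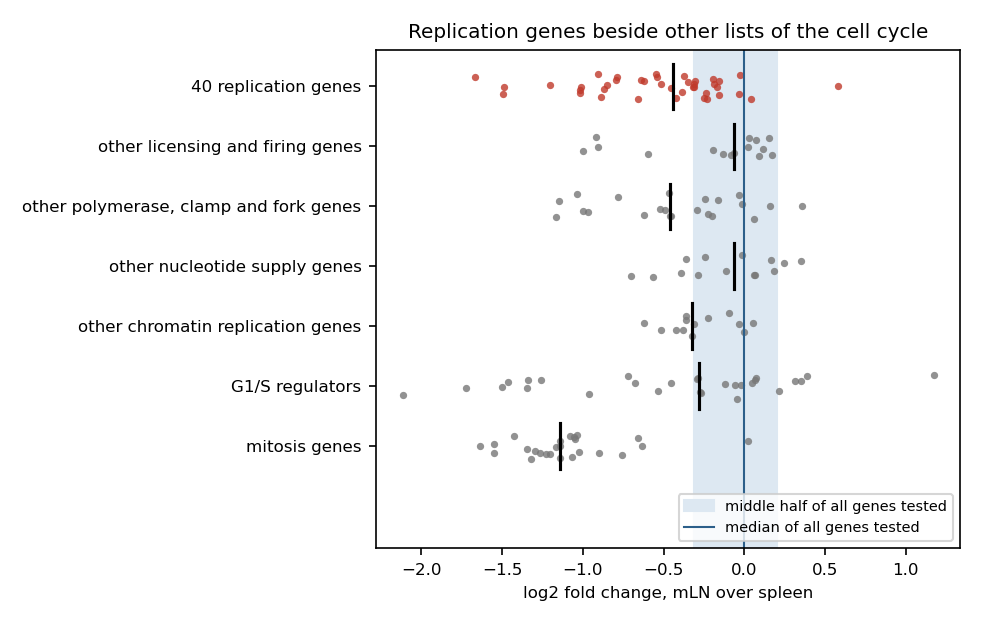
The fitted log2 fold change, mLN over spleen, of every gene in the 40 replication genes (red), in the 4 further replication lists, in the G1/S regulators and in the mitosis genes (grey), with a black bar at each list's median and a band over the middle 50% of all tested genes. The medians run from -0.06 for the other licensing and the other nucleotide supply genes to -1.14 for mitosis genes, with the 40 replication genes at -0.44.

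Marker lists of blood cell types also differed between the tissues, most of them lower in mLN and the pan-T list higher. Over all tested genes, 23.8% were called lower and 21.8% higher in mLN. The 13 erythroid precursor markers were all lower in mLN. Their summed level was 84.4 to 95.5 CPM in mLN libraries and 1993 to 2056 CPM in spleen libraries. The 9 neutrophil precursor markers were likewise all lower, at 42.6 to 48.9 CPM in mLN and 1194 to 1223 CPM in spleen. The 10 progenitor markers were all lower too, at 70.5 to 71.5 CPM in mLN and 343 to 353 CPM in spleen. In mLN most of each of these sums came from 1 gene, picked out after its values were seen. Tfrc led the erythroid sum, with 66.05 ± 5.74 CPM in mLN and 152 ± 3.03 CPM in spleen. Chil3 led the neutrophil precursor sum (44.3 ± 3.10 and 191 ± 3.32 CPM), and Myb the progenitor sum (43.9 ± 0.929 and 65.7 ± 2.58 CPM). The granule gene Mpo, picked out after its values were seen, stands in both the neutrophil precursor and the progenitor list and had 0.281 ± 0.119 CPM in mLN and 178 ± 4.64 CPM in spleen, so these sums are not independent. No counts at all were found in mLN for 3 of the erythroid, 3 of the neutrophil precursor and 2 of the progenitor markers. Against a floor of 3 counts over the group, the erythroid gene Car1 was at least 1091-fold lower in mLN, and the neutrophil precursor gene Elane was at least 466-fold lower. The same bound was at least 246-fold for Ctsg and at least 78.5-fold for Ms4a3, both of the progenitor list. The erythroid anion exchanger gene Slc4a1 had 2 counts in the mLN libraries together, against 256 ± 2.60 CPM in spleen, and the neutrophil granule gene Ltf had 3 counts in mLN together, against 331 ± 4.28 CPM in spleen. Of the 8 germinal-centre B-cell markers 6 were lower and none higher (111 to 119 CPM in mLN and 157 to 168 CPM in spleen), with Gcsam at a log2 fold change of -1.90. Of the 8 plasma-cell markers 7 were lower (404 to 423 CPM in mLN and 1074 to 1083 CPM in spleen), with Jchain at -1.998 and Derl3 at -1.67. All 9 pan-B markers were lower (3500 to 3565 CPM in mLN and 6046 to 6194 CPM in spleen), with Blk at -1.12 and Fcrla at -0.95. All 10 pan-T markers were higher (2619 to 2653 CPM in mLN and 1258 to 1283 CPM in spleen), with Trat1 at 1.57 and Cd3d at 1.35. The part of these cell types in the levels of the replication genes was not tested.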

How the data were processed

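The authors deposited, for each library, RSEM gene tables with expected counts, TPM values and effective lengths. Per the submitters' processing notes STAR, RSEM and mm10 were used, with versions, annotation and strand setting not stated in any source used here. Libraries were made with a directional kit, per the labels' protocols. Gene symbols came from GENCODE M21, which named 55227 of 55487 identifiers, and the other 260 held 0.0142 to 0.0189% of counts. The deposited expected counts were rounded, filtered with filterByExpr and scaled by TMM, and mLN was compared with spleen by edgeR's quasi-likelihood test (edgeR 4.0.16, R 4.3.3) with tissue as the sole term. Benjamini-Hochberg adjustment ran over 14427 genes, and an adjusted p under 0.05 was called. Alternatives were other scalings, DESeq2 1.42.0, other filters, an offset for the deposited effective lengths, a replicate block, assumed spreads and leaving out each library. TPM values, as deposited, served for levels between genes. All 40 members were described. Elsewhere each list gave up to 2 called genes that rose most and 2 that fell most, besides Mki67, Top2a and Ptprc. Mpo, Tfrc, Chil3, Myb, Pole3 and Orc2 to Orc5 were added after their values were seen. The members and lists were chosen with earlier results of these data known. Promoters are RefSeq's on GRCm38.p6. Reads of pseudogenes and of overlapping or antisense genes may be shared. A few genes are not reported here.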

Additional observations from a re-analysis of the deposited data

How the results depend on the processing

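Genes called numbered 6569 of the 14427 tested, against 2868 with an assumed coefficient of variation of 0.2 and 923 with 0.4. Replication genes lower in mLN numbered 33, against 15 and 3, and those higher 1, against 0 and 0. Leaving out 1 library gave 5854 to 6322 genes called, 28 to 34 replication genes lower, 1 higher in every case, and a median of -0.49 to -0.40. The sign turned for uncalled genes: Rpa1 was -0.007 with library totals alone and -0.031 with the effective-length offset, which also gave Gins3 0.065 and Dnmt1 0.000. On leaving out 1 library Gins3 ran from -0.10 to 0.035, turning without mLN replicate 1 or spleen replicate 3 (0.033). Of the 34 called replication genes, 27 kept their call in all 14 alternatives that did not assume a spread. Replicate numbers were not treated as pairs in the main fit. Deviations of log2 CPM from the tissue mean were compared between tissues over 9295 genes. Same-numbered libraries had correlations of 0.018, 0.0039 and -0.021, and differently numbered libraries -0.032 to 0.027. No shared deviation was seen, which does not exclude that same-numbered libraries came from the same animals. With the replicate block 34 replication genes were lower, Gins2 among them (-0.352, adjusted p = 0.00061), and 1 higher, and 6455 genes were called. Precision is lowest for Orc1 and Gins1, which had the fewest counts.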
